A study of Mus musculus with 11 samples.

Results

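The genes described here encode the proteasome of mouse embryonic stem cells. They were chosen by name: the coding RefSeq genes in the deposited expression tables whose symbol begins Psma, Psmb, Psmc, Psmd, Psme, Psmf or Psmg followed by a digit. The rule found 49 genes of the 19351 coding RefSeq genes with a symbol, and all 49 have a row in both tables. Of these, 47 encode subunits, assembly chaperones, activators or an inhibitor. The other two, Psmc3ip (a meiotic recombination factor) and Psme3ip1, share only the start of the symbol and are not subunits. The ATPase gene Psmc1 and the activator gene Psme2b were not analysed here.

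The series asks how Dicer, microRNAs and Myc act on one another. All RNA libraries come from embryonic stem cells of strain 129S4/SvJae that grew on gelatin without feeder cells, and all were made from poly(A) RNA by a strand-marking dUTP protocol. The first comparison sets 3 Dicer-deficient lines (Dcr KO lines 1, 3 and 4, 1 library each) against 2 wild-type libraries (Dcr WT 1 and 2), all read from paired ends. The second sets 1 library of cMyc KO cells against 1 library of flox/flox cMyc cells (cMyc flox), both read from single ends. Nothing states that the wild-type libraries came from separate cultures, so p-values measure the spread between these libraries, which may be technical. Each knockout line is a separate line, and the cMyc genotypes have no replicate.

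The proteasome is the protease that degrades ubiquitin-tagged proteins in the cytosol and nucleus. Its core is a stack of alpha and beta rings, and the beta subunits Psmb5, Psmb6 and Psmb7 carry the active sites. A cap made of a base, with a ring of ATPases, and a lid binds the ubiquitin chain, removes it and threads the substrate into the core. Interferon-responsive cells replace the catalytic subunits with Psmb8, Psmb9 and Psmb10, forming the immunoproteasome, and can attach the Psme1 and Psme2 ring (PA28) in place of the cap. Both favour peptides for presentation on class I molecules. Embryonic stem cells are known for high proteasome activity, and the Psmg chaperones with Pomp build the core before the caps join.

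Values are the authors' normalised read counts, in which each library's read counts were divided by 1 factor. The reads recovered from them numbered 101815723 to 278006158 in the Dcr libraries, and 24660368 and 31633005 in the cMyc libraries. Of these reads, mRNAs held 91.4% to 93.2% in the Dcr libraries, but 62.3% in cMyc flox and 60.9% in cMyc KO. Features listed as rRNA held 28.1% in cMyc flox and 30.0% in cMyc KO, and 0% in the Dcr libraries. Dicer1 was at 20131 and 18792 in wild type and at 8553, 9793 and 7743 in the Dcr KO lines, which is -1.17 ± 0.15 as a log2 fold change ± SE (adjusted p = 0.000556 in the limma fit). Its transcript was therefore lower in the KO lines but not absent, and the files do not show which part was deleted. Myc reads fell from 446 in cMyc flox to 12 in cMyc KO. In the Dcr libraries Myc was also lower in KO, at 10984 and 7478 against 1253, 1054 and 443. All 8 stem cell markers examined, Pou5f1, Nanog and Sox2 among them, were expressed in every library. In Dcr KO, 1 of the 8 (Tdgf1) was called lower, as were 22.7% of all mRNAs.

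Sequencing reads of proteasome genes took a smaller part of the mRNA pool in the Dcr KO lines. The 47 proteasome genes held 0.729% and 0.741% of mRNA reads in wild type and 0.632%, 0.606% and 0.605% in KO lines 1, 3 and 4. The groups did not overlap. In bulk RNA, fewer cells of a type and less RNA per cell cannot be told apart. Core and cap differed in size of change. The 14 genes of the alpha and beta rings summed to 408510 and 371237 in wild type and to 324571, 297402 and 271845 in KO, again without overlap. The 16 measured genes of the base and lid summed to 722698 and 666875 in wild type and to 719451, 647022 and 589904 in KO, so that KO line 1 lay between the wild-type libraries on the deposited scale. As a share of mRNA reads, the cap genes did not overlap either, at 0.386% and 0.385% in wild type and 0.351%, 0.327% and 0.329% in KO. The core genes held 0.218% and 0.215% in wild type and 0.158%, 0.150% and 0.151% in KO. The ratio of the core sum to the cap sum was 0.565 and 0.557 in wild type and 0.451, 0.460 and 0.461 in KO. This ratio compares libraries only, since transcript lengths were not used.

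**Figure D1:**
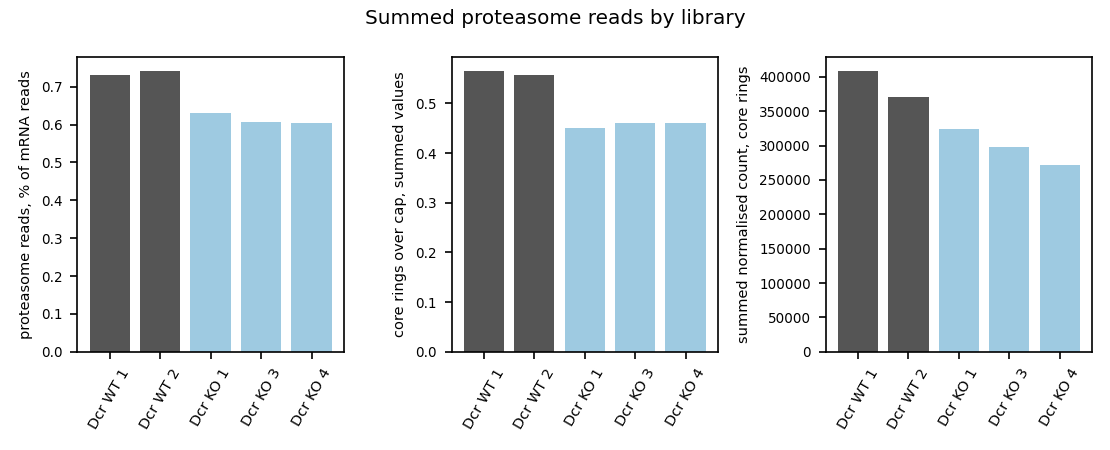
Summed proteasome signal in each Dcr library, with wild type in dark and KO in light bars. The left panel gives the 47 genes as a percentage of mRNA reads (0.605% to 0.741%), the middle panel the core sum over the cap sum (0.451 to 0.565) and the right panel the summed normalised counts of the 14 core genes; KO bars are lower in each panel.

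Gene by gene, a member was called higher or lower when limma, on log2(value + 1), gave an adjusted p under 0.05 over all 42358 features tested. All 49 genes passed the filter on low values. In Dcr KO, 4 of the 49 were called higher and 13 lower, while 32 were not called. Among all mRNAs tested, 20.5% were called higher and 22.7% lower. For the proteasome genes these shares were 8.16% and 26.5%, so the share that fell was close to the background and the share that rose was below it. All 3 KO lines lay above both wild-type libraries for 5 genes (10.2%; 30.8% of all mRNAs) and below both for 22 genes (44.9%; 35.4% of all mRNAs). The median log2 fold change was -0.24 over the 49 genes, -0.06 over all mRNAs and 0.08 over all features. Without KO line 3, or without KO line 4, 6 genes instead of 13 were called lower, and without filtering low values 8 were.

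**Figure D2:**
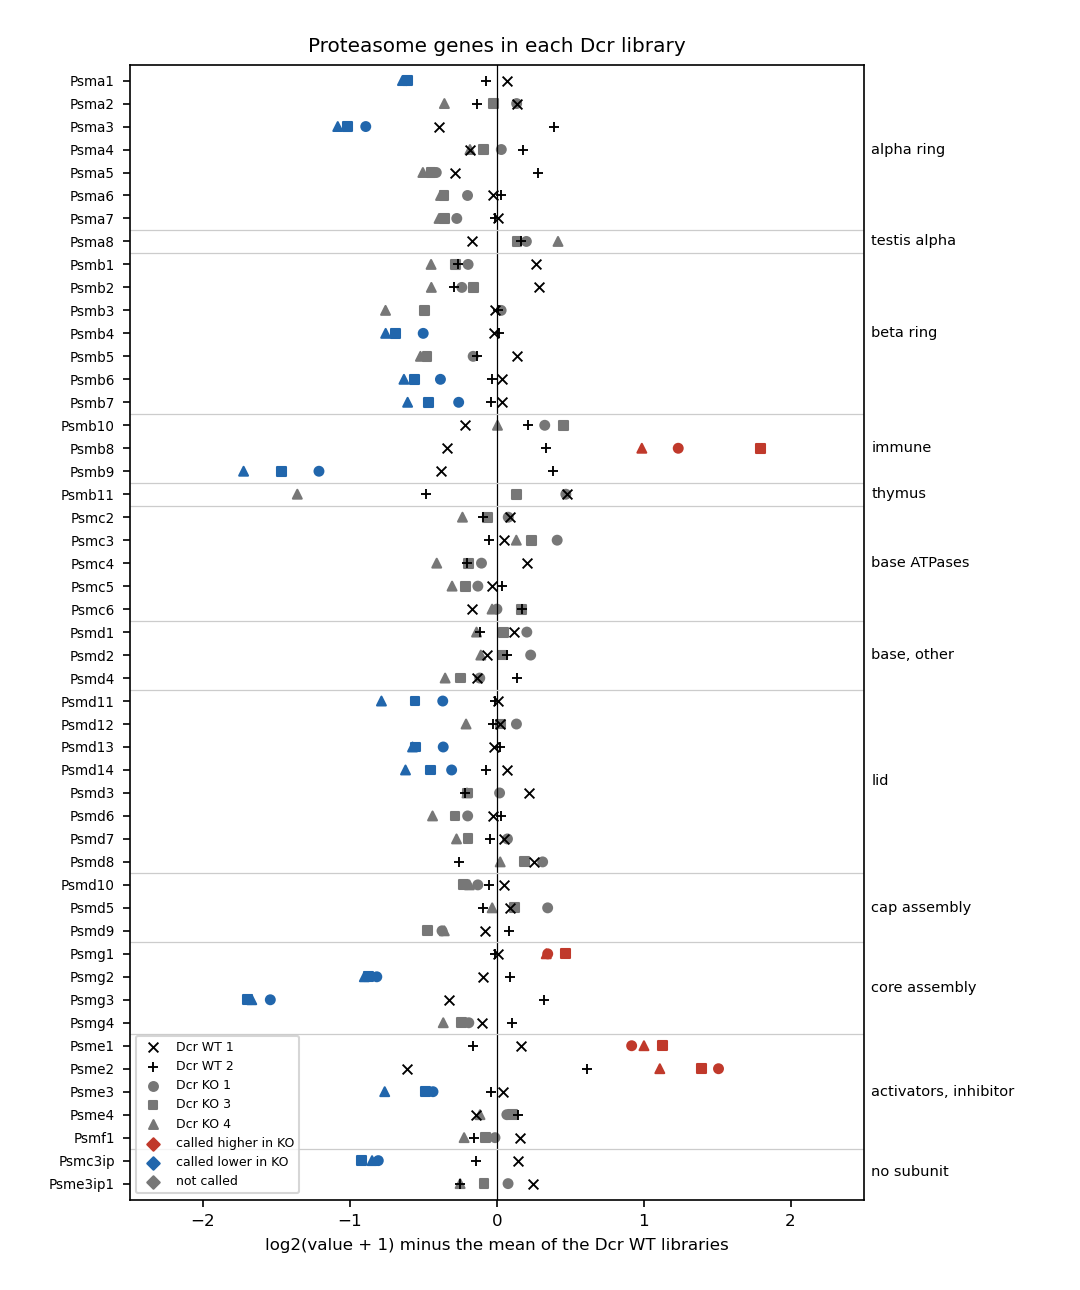
Every proteasome gene in every Dcr library, as log2(value + 1) minus the mean of the Dcr WT libraries, ordered by role. Crosses and plus signs are Dcr WT 1 and 2, filled symbols are KO lines 1, 3 and 4, with the 4 genes called higher in red, the 13 called lower in blue and the 32 not called in grey; most core genes sit left of 0, while most base genes straddle it.

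**Figure D3:**
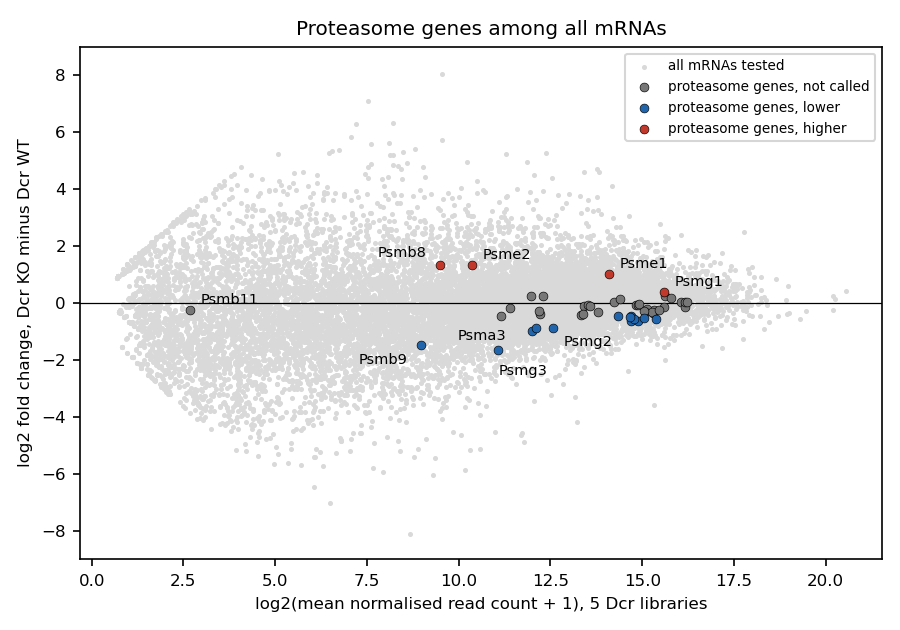
Log2 fold change (Dcr KO minus Dcr WT) against log2 of the mean normalised read count plus 1 for all 17140 mRNAs tested (light grey) and the 49 proteasome genes (dark grey, blue where called lower, red where called higher). Most proteasome genes lie among the abundant mRNAs just below 0, and Psmb8, Psme2, Psme1, Psmb9 and Psmg3 stand farthest from it.

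The genes of the core rings had lower values in Dcr KO. All 14 constitutive alpha and beta genes had a log2 fold change below 0, with a median of -0.40, as did 53.0% of all mRNAs. Of the 14, 5 were called lower (35.7%; 22.7% of all mRNAs), and 9 had all KO lines below wild type (64.3%; 35.4% of all mRNAs). All 14 stayed below 0 under every other scaling tried, but without Dcr WT 1 the genes Psma2 and Psmb2 did not, without Dcr WT 2 Psma4 did not, and without KO line 4 Psma2 did not. The alpha ring forms the gate of the core chamber. Psma3 was at 4367 and 7529 in wild type and at 3089, 2830 and 2707 in KO, 2.07-fold lower (log2 fold change -0.998 ± 0.220, adjusted p = 0.00837). The KO lines lay close together, while the wild-type libraries were far apart, and the log2 fold change was -0.605 without Dcr WT 2 and -1.39 without Dcr WT 1. The call was lost without KO line 4 (adjusted p = 0.0504) and where low values were not filtered (adjusted p = 0.0842). Psma1 was at 34948 and 31651 in wild type and at 21743, 21782 and 21308 in KO. It was 1.54-fold lower (-0.62 ± 0.13, adjusted p = 0.00658), and this call held in all 15 alternatives.

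The other alpha genes were not called. Psma7 was at 46391 and 45756 in wild type and at 38144, 36066 and 35086 in KO, without overlap (-0.34, adjusted p = 0.0714). Psma5 and Psma6 gave -0.45 and -0.31, also without overlap. Psma2 and Psma4 were both at -0.08, and their groups overlapped. The 7 alpha genes thus spanned log2 fold changes from -0.998 to -0.081, although each complete ring holds these subunits in equal number.

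The beta genes were more alike, with log2 fold changes from -0.65 to -0.28. Psmb4, a structural subunit, was at 38366 and 39255 in wild type and at 27420, 24078 and 22970 in KO, 1.56-fold lower (-0.65 ± 0.14, adjusted p = 0.00712), a call lost without KO line 3 (adjusted p = 0.0531). Of the catalytic genes, Psmb6 (caspase-like activity) was at 42743 and 40859 against 32030, 28378 and 26964 (-0.52 ± 0.14, adjusted p = 0.0182). Psmb7 (trypsin-like activity) was at 32425 and 30786 against 26393, 22884 and 20741 (-0.44 ± 0.15, adjusted p = 0.0450). Both were called lower and their groups did not overlap. Both calls were lost without KO line 3 or 4, and Psmb7 kept its call in 8 of 15 alternatives. Psmb5 (chymotrypsin-like activity) was at 13666 and 11314 against 11122, 8941 and 8672, again without overlap, but was not called (-0.39 ± 0.16, adjusted p = 0.101). The structural genes Psmb1, Psmb2 and Psmb3 gave -0.31, -0.28 and -0.41 with overlapping groups and were not called.

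The immune subunits went in opposite directions. Psmb8, which takes the place of Psmb5, was at 288 and 459 in wild type and at 857, 1263 and 722 in KO. The means were 373 ± 121 (SD, n = 2) and 947 ± 281 (SD, n = 3), a 2.54-fold rise (log2 fold change 1.34 ± 0.29, limma adjusted p = 0.00752). Psmb9, which takes the place of Psmb6, was at 612 and 1036 in wild type and at 343, 287 and 240 in KO, and fell 2.84-fold (-1.47 ± 0.28, adjusted p = 0.00401). Neither gene's groups overlapped, although each varied more than 1.5-fold between the wild-type libraries. Both calls held without any single library and were lost where low values were not filtered (adjusted p = 0.0812 and 0.0517). Psmb10, which takes the place of Psmb7, was at 3814 and 5129 against 5546, 6062 and 4437. Its groups overlapped and it was not called (0.26, adjusted p = 0.318).

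Set against the catalytic gene each replaces, the immune counts were small in most libraries. The Psmb8 count was 2.11% and 4.06% of the Psmb5 count in wild type and 7.71%, 14.1% and 8.32% in KO, a 3.31-fold difference. Psmb10 was 11.8% and 16.7% of Psmb7 in wild type and 21.0%, 26.5% and 21.4% in KO, a 1.63-fold difference. Psmb9 was 1.43% and 2.54% of Psmb6 in wild type and 1.07%, 1.01% and 0.891% in KO, 1.93-fold lower. None of the 3 pairs overlapped between genotypes. The two-sided exact permutation test gave p = 0.1 for each pair (0.1 after Benjamini-Hochberg adjustment over the 3), which is the smallest p that 2 against 3 libraries allow. These percentages are not corrected for transcript length and so compare libraries, not the abundance of one subunit with another.

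**Figure D4:**
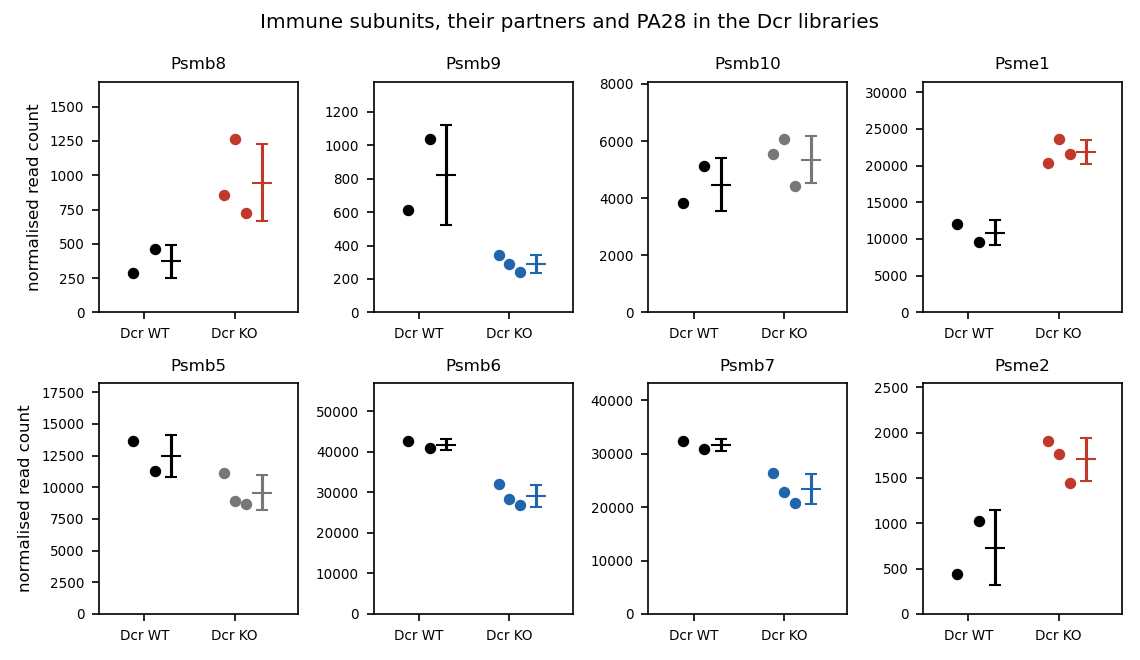
Normalised read counts of Psmb8, Psmb9 and Psmb10 (top), the catalytic genes they replace, Psmb5, Psmb6 and Psmb7 (below each), and the PA28 genes Psme1 and Psme2 (right), in the 2 Dcr WT and 3 Dcr KO libraries; each point is a library, and the bars give mean ± SD. Psmb8, Psme1 and Psme2 (red) are higher in KO, Psmb9, Psmb6 and Psmb7 (blue) are lower, and Psmb5 and Psmb10 (grey) were not called.

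Psmb8 and Psmb9 lie next to the peptide transporter genes on mouse chromosome 17, in the order Psmb9, Tap1, Psmb8, Tap2. Psmb9 and Tap1 start 225 bases apart on opposite strands and share the stretch between their starts, whereas Psmb8 has a promoter of its own. Both are shown because the neighbours moved in opposite directions. They are RefSeq promoter windows of build GRCm38.p6, cut at the start site and printed 5′ to 3′ on the gene's strand. The stretch between Psmb9 and Tap1 is chr17:34187331-34187555, minus strand, with capitals marking CCAAT as read on the other strand. The Psmb8 stretch is chr17:34197945-34198194, plus strand, with capitals marking a match to TTCNNNGAA, the form of a gamma-activated site.
Psmb9 to Tap1: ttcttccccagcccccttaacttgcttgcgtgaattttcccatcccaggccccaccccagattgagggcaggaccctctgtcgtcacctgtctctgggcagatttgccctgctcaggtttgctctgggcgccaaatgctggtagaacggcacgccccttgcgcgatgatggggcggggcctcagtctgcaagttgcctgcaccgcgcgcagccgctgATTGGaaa
Psmb8: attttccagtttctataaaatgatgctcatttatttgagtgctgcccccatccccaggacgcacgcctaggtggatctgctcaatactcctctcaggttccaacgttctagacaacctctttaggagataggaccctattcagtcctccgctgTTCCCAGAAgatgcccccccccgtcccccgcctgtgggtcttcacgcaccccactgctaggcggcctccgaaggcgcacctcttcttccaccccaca
Tap1, like Psmb9, was lower, at 2042 and 3217 in wild type and at 1412, 1450 and 1095 in KO (-0.97, limma adjusted p = 0.0109). Tap2, next to Psmb8, did not rise with it, at 577 and 1341 against 746, 854 and 911. Its groups overlapped and it was not called (-0.08, limma adjusted p = 0.871). The part of the promoter stretches in these values was not tested.

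The PA28 activator genes rose. Psme1 was at 12052 and 9625 in wild type and at 20354, 23583 and 21572 in KO, from 10839 ± 1716 (SD, n = 2) to 21836 ± 1630 (SD, n = 3). This was a 2.01-fold rise (1.02 ± 0.15, limma adjusted p = 0.00123) that held in all 15 alternatives. Psme2, whose product forms a mixed ring with that of Psme1, was at 439 and 1024 in wild type and at 1910, 1766 and 1448 in KO. It rose 2.34-fold (1.34 ± 0.32, adjusted p = 0.0114), with no overlap. The wild-type libraries differed most for this gene: the log2 fold change was 0.73 without Dcr WT 1 and 1.95 without Dcr WT 2, and the call was lost when KO line 1 was left out (adjusted p = 0.0772), for line 3 (adjusted p = 0.0512), and without the filter on low values (adjusted p = 0.116). Psme3, which forms a nuclear activator ring by itself, went the other way, at 53870 and 50984 against 38779, 37457 and 30879. It was 1.47-fold lower (-0.56 ± 0.15, adjusted p = 0.0183), a call lost without KO line 3 or 4 and without the filter.

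Psme1 and Psme2 lie on chromosome 14 with Emc9 between them and rose together, so the 250 bases before each start are shown (RefSeq, GRCm38.p6). Psme1 is chr14:55578244-55578493 on the plus strand and Psme2 chr14:55591102-55591351 on the minus strand. Neither stretch held a match to the motifs searched, and no letter is in capitals. The Psme1 window continues past the start site, and there, from base 10, it holds TTTCGCTTTC, whose reverse complement has the core form of an interferon-stimulated response element, GAAA and GAAA with any 2 bases between them.
Psme1: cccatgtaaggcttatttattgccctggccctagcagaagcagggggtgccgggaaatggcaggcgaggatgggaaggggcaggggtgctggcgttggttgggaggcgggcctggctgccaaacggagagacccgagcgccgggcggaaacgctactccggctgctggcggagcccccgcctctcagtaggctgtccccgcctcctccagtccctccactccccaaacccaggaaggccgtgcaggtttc
Psme2: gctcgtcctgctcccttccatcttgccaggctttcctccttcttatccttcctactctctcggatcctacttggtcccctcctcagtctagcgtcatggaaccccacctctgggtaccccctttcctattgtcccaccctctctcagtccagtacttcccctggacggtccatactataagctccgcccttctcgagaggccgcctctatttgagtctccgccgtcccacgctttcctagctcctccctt

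Of the antigen-processing and interferon genes listed as partners, 11 of 12 were measured, and 6 were called higher and 3 lower in Dcr KO, against 20.5% and 22.7% of all mRNAs. The median log2 fold change of the 11 was 0.68. Erap1, which trims peptides in the endoplasmic reticulum, went from 847 and 825 to 6523, 8837 and 5868 (3.06). The peptide-loading gene Tapbp gave 2.23, and the interferon-pathway transcription factor Irf1 gave 1.45. The chaperones Pdia3 and Calr gave 0.77 and 0.68. Nlrc5, the class I transactivator, was at 433 and 574 in wild type and at 35.5, 61.1 and 67.3 in KO (-3.22, adjusted p = 0.0003), and the class I light chain B2m gave -0.72. Psmb9 and Tap1 thus fell with Nlrc5 and B2m, while Psmb8, Psme1 and Psme2 rose with Irf1 and Tapbp.

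Markers of other cells also differed between these libraries, in which 22.7% of all mRNAs were called lower and 20.5% higher in Dcr KO. Of 10 fibroblast or feeder markers, 9 passed the filter, and 6 were called lower (Col1a1, Col1a2, Col3a1, Acta2, Tagln and Thy1) and 1 higher (Dcn). Their summed count was 32109 to 44205 in wild type and 4217 to 7724 in KO. Of 10 blood and immune markers, 9 passed, with 3 called higher (Cd3e and Laptm5 among them) and 3 lower (Cd74, Coro1a and Itgam), and their summed count was 27611 to 30392 in wild type and 34120 to 38653 in KO. Laptm5 made up most of that sum, Tyrobp was at 0 in all 5 libraries and Ptprc was at 0 in 3 of them. The part of either cell type in the immune subunit and PA28 values was not tested.

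In the cap, 3 of the 16 measured genes were called, all lower (18.8%; 22.7% of all mRNAs), and these 3 were all in the lid. None of the 5 measured base ATPase genes and none of the 3 base non-ATPase genes was called by limma, edgeR or DESeq2, and 0 of these 8 had an unadjusted limma p under 0.05. Their median log2 fold changes were -0.07 and 0.04. Psmc3 was the highest of the ATPase genes by fold, at 46507 and 43385 against 59728, 52896 and 49253. Its KO lines all lay above wild type, yet it was not called (0.26, adjusted p = 0.186). The scaffold genes Psmd1 and Psmd2 gave 0.04 and 0.05, and the ubiquitin receptor Psmd4 gave -0.24. Of the 8 lid genes, 3 were called lower (37.5%; 22.7% of all mRNAs). Psmd11 was at 35264 and 34754 in wild type and at 27126, 23799 and 20311 in KO (-0.57 ± 0.15, adjusted p = 0.0205). Psmd13 was at 30840 and 31735 against 24295, 21277 and 21022 (-0.50, adjusted p = 0.0213). Psmd14, the deubiquitinase of the lid, was at 25960 and 23537 against 19974, 18105 and 16066 (-0.46, adjusted p = 0.0388). All 3 calls were lost without KO line 3 or 4, that of Psmd11 also where low values were not filtered (adjusted p = 0.0776). Psmd14 kept its call in 9 of 15 alternatives, and lost it also without Dcr WT 1, without KO line 1, without the filter and under upper-quartile scaling. The other lid genes ranged from -0.31 (Psmd6) to 0.18 (Psmd8).

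The assembly chaperones of the core held the largest fall in the whole set. Psmg3 was at 2857 and 4474 in wild type and at 1227, 1104 and 1124 in KO, from 3665 ± 1144 (SD, n = 2) to 1152 ± 66.1 (SD, n = 3). It was 3.18-fold lower (-1.63 ± 0.21, limma adjusted p = 0.000535). Psmg2 was at 7860 and 8918 against 4752, 4568 and 4481, 1.82-fold lower (-0.86 ± 0.14, adjusted p = 0.00194). Both calls held in all 15 alternatives, and the KO lines were nearly equal for both genes. Psmg1, whose product pairs with that of Psmg2, rose instead, from 42051 and 41457 to 53094, 57629 and 52727. The rise was 1.30-fold (0.38 ± 0.13, adjusted p = 0.0490), a call that held in 6 of 15 alternatives. Psmg4, the partner of Psmg3, gave -0.27 with no overlap and was not called (adjusted p = 0.199). Thus the members of each chaperone pair had unlike values. Pomp, the maturation factor that joins the chaperones on the half-built core, was at 14778 and 15818 in wild type and at 8727, 7740 and 7560 in KO (-0.94, adjusted p = 0.0012). The cap chaperones Psmd5, Psmd9 and Psmd10 gave 0.15, -0.40 and -0.18. The main limma fit and edgeR called none of the 3, and DESeq2 called 1 lower. Limma also called 1 lower without the filter, with total-count scaling and with mRNAs alone in the fit. In the main fit 1 (Psmd9) had an unadjusted limma p under 0.05.

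Among the remaining members, Psmc3ip alone was called. Psme4, the single-chain activator PA200, was at 60453 and 73771 against 70026, 72015 and 61687 (0.02, adjusted p = 0.927), with a sign that depended on scaling. Psmf1, an inhibitor of the core, gave -0.10 (adjusted p = 0.632). Psma8, the alpha subunit of the testis proteasome, was at 3201 and 4029 against 4129, 3951 and 4794 and overlapped (0.25, adjusted p = 0.275). Psmb11, the catalytic subunit of the thymus, was supported by 4, 4, 9, 8 and 2 reads in the 5 libraries, near a floor of 3 counts, so no difference was detectable at this depth. Of the 2 genes that are not subunits, Psmc3ip was 1.82-fold lower, at 6625 and 5422 against 3426, 3158 and 3327 (-0.86, adjusted p = 0.00306), and Psme3ip1 gave -0.09 and was not called.

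On the deposited scale the KO lines differed from each other in a common order. Line 1 was the highest of the 3 for 39 of 49 genes and line 4 the lowest for 43 of 49, against 46.9% and 51.7% of all mRNAs. The full order, line 1 above line 3 above line 4, occurred for 36 of 49 genes and for 33.8% of all mRNAs. The counts depended on the scaling: with each library scaled to the same mRNA total, the full order occurred for 19 of 49 genes and 16% of all mRNAs, and line 4 was the lowest for 23 genes (27.4% of all mRNAs). The steps were small. The highest line exceeded the lowest by a median of 1.19-fold, leaving out Psmb11, and by over 1.5-fold for Psmb3 and Psmb8 alone. Between the wild-type libraries the median was 1.16-fold, but 5 genes exceeded 1.5-fold: Psme2, Psma3, Psmg3, Psmb8 and Psmb9. All 5 were called between the genotypes. Dcr WT 1 exceeded Dcr WT 2 for 27 of 49 genes, against 53.6% of all mRNAs.

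Among proteasome partners without a Psm symbol, 19 of 20 were measured, and 4 were called higher and 2 lower in Dcr KO. These shares were close to and below the 20.5% and 22.7% of all mRNAs. Besides Pomp, Sem1, a small lid subunit, was at 10970 and 10947 in wild type and at 6013, 5782 and 6019 in KO (-0.88, adjusted p = 0.0013). Ecpas, an adaptor that binds the assembled proteasome, went from 11819 and 13636 to 25071, 27244 and 24616 (1.01). The shuttle genes Rad23b and Ubqln2, which carry ubiquitinated proteins to the cap, gave 0.57 and 0.77, and the stress-induced Zfand2a gave 0.64. Of the regulators of proteasome genes, 7 of 8 were measured. Nfe2l2 rose, at 24288 and 17485 against 37011, 35116 and 34507 (0.79, adjusted p = 0.0062), as did Keap1, which targets its product for degradation (0.76, adjusted p = 0.0028). The small Maf gene Maff fell (-1.14). Nfe2l1, the transcription factor known for restoring proteasome genes when the protease is inhibited, gave 0.37 and was not called (adjusted p = 0.0578).

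Promoter windows were at hand in RefSeq for 41 of the 49 members, in 45 windows of 300 bases. Their median GC content was 59%, against 52.7% over all windows, and its part in the motif shares was not tested. The E-box CACGTG, the form bound by Myc with Max, occurred in 11.1% of the member windows and in 7.15% of all 32851 windows, on either strand. Its 5 genes were Psma4, Psmb10, Psmd9, Psme3 and Psme3ip1, of which Psme3 alone was called in Dcr KO. The NF-Y form CCAAT occurred in 33.3% of member windows and 37.4% of all. TGACNNNGC, the core of the antioxidant response element, occurred in 13.3% and 12.4%, and its genes included Psmb5, Psmb6, Psmc6 and Psme4. The interferon-stimulated response element core, as spelled out for Psme1, and TTCNNNGAA were added after the values had been seen. They occurred in 11.1% and 6.67% of member windows and in 3.44% and 8.30% of all windows. The genes with the interferon element core were Psmb3, Psmd4, Psmd9, Psme1 and Psmg4. A match describes the letters of a window and not a bound site.

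In the cMyc libraries most proteasome genes had higher counts in the knockout, by small amounts. With 1 library of each genotype no test was possible, and the intervals given are exact 95% intervals that cover counting error only. Of the 48 members with at least 10 reads over both libraries, 41 had a ratio of cMyc KO to cMyc flox above 1, as did 63.1% of all mRNAs. The interval lay wholly above 1 for 35 members (34% of mRNAs) and below 1 for 5 (15.9% of mRNAs). An interval narrows as reads rise, and the mRNA shares cover every mRNA with at least 10 reads. These counts were not matched for read number and were made on uncentred ratios only. The median uncentred ratio of the 48 members was 1.20, against 1.08 over all mRNAs. On the log2 scale these were 0.27 and 0.11, and the member median was 0.16 once ratios were centred on that of all mRNAs. Past 1.5-fold there was 1 member higher (8.34% of mRNAs) and 0 lower (5.72% of mRNAs). The 47 proteasome genes held 0.744% of mRNA reads in cMyc flox and 0.798% in cMyc KO, and the ratio of core to cap was 0.583 and 0.576.

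**Figure D5:**
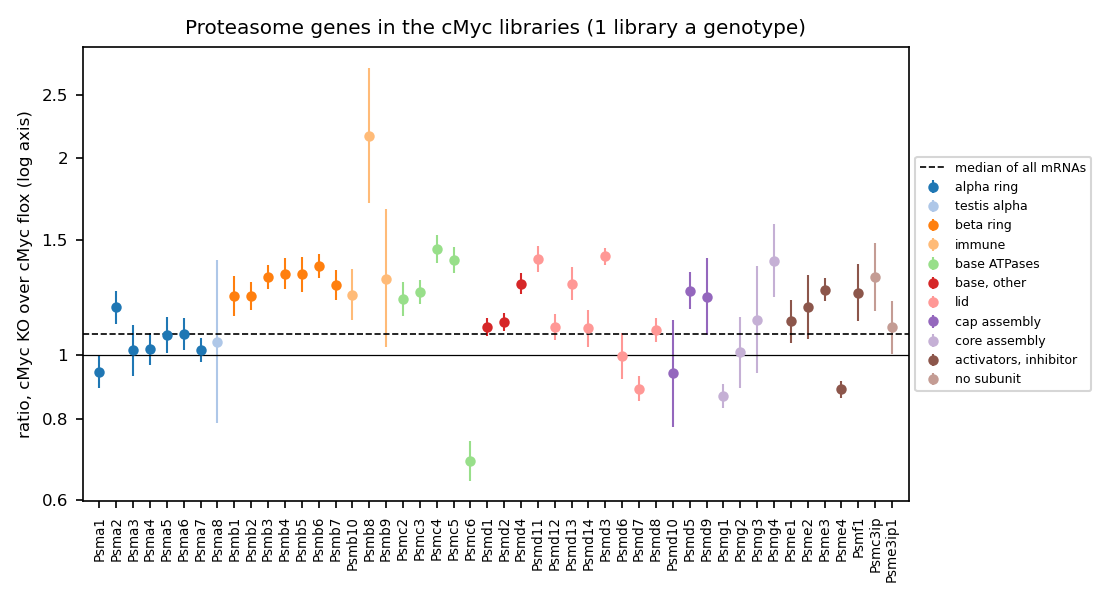
Ratio of cMyc KO to cMyc flox (log axis) for the 48 proteasome genes with at least 10 reads, coloured by role, with exact 95% counting intervals and 1 library per genotype; the dashed line is the median of all mRNAs (1.08). Psmb8 stands highest at 2.16 and Psmc6 lowest at 0.689, and the 7 beta ring genes lie together between 1.23 and 1.37.

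The member past 1.5-fold was Psmb8, with 101 reads in cMyc flox and 254 in cMyc KO, or 106.44 and 230.16 normalised, a ratio of 2.16 (1.71 to 2.75). Psmb9 gave 1.31 (1.03 to 1.67) and Psmb10 1.24 (1.13 to 1.35). As a percentage of the catalytic gene replaced, Psmb8 went from 5.84% to 9.50%, while Psmb10 (37.0% and 35.7%) and Psmb9 (3.23% and 3.08%) hardly differed. The PA28 genes Psme1 and Psme2 gave 1.13 and 1.18, and Psme3 gave 1.26. Of the 11 antigen-processing genes measured, Nlrc5 (2.09), Tap2 (2.01) and Tapbp (1.61) were past 1.5-fold, all higher. Nlrc5 had only 7 reads in cMyc flox and 17 in cMyc KO, and its counting interval (0.823 to 5.96) held 1. The intervals of Tap2 and Tapbp lay wholly above 1. The summed fibroblast markers were at 9102 in cMyc flox and 12412 in cMyc KO, with 5 of 9 past 1.5-fold higher (8.34% of all mRNAs). Their part in these ratios was not tested.

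The alpha and beta rings of the core had ranges of cMyc ratios that did not overlap, although counting intervals did. The interval of Psma2 (1.12 to 1.25), for example, overlapped that of Psmb1 (1.15 to 1.32). All 7 beta ring genes had ratios from 1.23 to 1.37, with a median of 1.32, above the median of all mRNAs. The 7 alpha ring genes ran from 0.943 (Psma1) to 1.18 (Psma2), with a median of 1.02, which is below that median. In the cap, Psmc4 (1.45), Psmd3 (1.42), Psmd11 (1.40) and Psmc5 (1.40) were highest. Psmc6, an ATPase of the same ring as Psmc4 and Psmc5, was the lowest of all members at 1940.21 and 1337.48, a ratio of 0.689 (0.643 to 0.739), and passed 1.5-fold lower once ratios were scaled on mRNAs. Psmd7 (0.889), Psme4 (0.887) and Psmg1 (0.865) also had intervals below 1. Psmb11 had 0 reads in cMyc flox and 1 in cMyc KO, and no ratio is given.

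The Dcr and cMyc comparisons share no library, were read differently and were scaled separately, so values are set side by side without a test. Psmb8 was higher in both, at 2.54-fold in Dcr KO and 2.16-fold in cMyc KO. Psmb9 was 2.84-fold lower in Dcr KO and at a ratio of 1.31 in cMyc KO. The catalytic genes Psmb6 and Psmb7, lower in Dcr KO at -0.52 and -0.44 on the log2 scale, were at 0.45 and 0.36 in cMyc KO. Psmg1 was at 0.38 in Dcr KO and -0.21 in cMyc KO, and Psmg2, at -0.86 in Dcr KO, was at 0.01. Psma1 was below 0 in both, at -0.62 and -0.09.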

How the data were processed

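RNA-seq libraries of 5 Dcr and 2 cMyc samples were used, and the 4 ChIP libraries were not analysed here. TopHat, Bowtie, DESeq and build mm9 are named, without versions or roles, per the submitters' processing notes. How reads were counted, with which gene models and with what use of strand is not stated in the labels. The authors deposited a normalised signal: read counts per gene divided by 1 factor per library. Dividing by the value of 1 read gave whole numbers for 100% of values, within 0.01 read (cMyc values, deposited to 2 decimals, within their rounding).

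RefSeq identifiers were matched to symbols with the RefSeq annotation of GRCm38.p6 (19362 of 19683 coding features in the Dcr table, 16246 of 16484 in the cMyc table). No mm9 gene coordinates, protein sequences or transcript lengths were used, so genes are compared between libraries only. The Dcr groups were compared with limma 3.58.1 under R 4.3.3 (eBayes with a mean-variance trend), taking log2(value + 1) of features of at least 1 in at least 2 libraries, with Benjamini-Hochberg adjustment over all 42358. A fold change on this scale understates changes of low genes. The same test was also run on simulated counts, drawn with the same dispersion for every feature, as a check of the code alone. edgeR 4.0.16 and DESeq2 1.42.0 were run on the recovered reads as alternatives, beside other pseudocounts, filters, scalings and fits without each library. Ratios in the cMyc libraries have exact 95% intervals (conditional binomial, Clopper-Pearson). PCR reads are not independent molecules, so intervals and floors cover counting error only.

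Members and lists were chosen with earlier results of these data known. Every library's value was to be given for Dicer1, Myc, the 8 called members with the largest rise and fall, the immune and PA28 genes with their partners, Psma8, Psmb11, Psme3, Psme4, Psmf1, and members past 1.5-fold in cMyc; the part of the rule that ranks members per kb could not be applied. Other members given in full (Psma7, Psmc3, Psmd13, Psmd14, Psmg1 and partner genes) illustrate their role group. Values of some genes on the partner and marker lists are not reported here.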

Additional observations from a re-analysis of the deposited data

How the results depend on the processing

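No paired analysis was possible, because no label pairs a Dcr KO line with a wild-type library and the cMyc groups have 1 library each. None of the 17 called members changed sign in any of the 15 alternatives, and 5 kept their call in all of them: Psma1, Psmc3ip, Psme1, Psmg2 and Psmg3. Without filtering low values, 1 member was called higher and 8 lower, against 4 and 13; the cause was not tested. Leaving out each library in turn gave 2 to 3 members called higher and 6 to 16 lower, with the lowest count of falls (6) without KO line 3 or 4, and 10 called members lost their call in at least 1 such fit. The median log2 fold change was -0.30 to -0.13 in these fits, nearest 0 without Dcr WT 1. edgeR called 3 higher and 13 lower, DESeq2 4 and 14, total-count scaling 3 and 18, and upper-quartile scaling 4 and 11. At an unadjusted p under 0.05, limma gave 4 higher and 18 lower. Signs turned only for uncalled genes. Psmb11 (-0.25) gave 0.23 without Dcr WT 1, 0.30 without KO line 4 and -0.73 without Dcr WT 2. Psme4 (0.02) gave -0.060 under total-count scaling, -0.12 without Dcr WT 1, 0.16 without Dcr WT 2, -0.0028 without KO line 1 and -0.023 without KO line 3. Psmf1 (-0.10) gave 0.051 without Dcr WT 1 and -0.26 without Dcr WT 2. The order of KO lines 1, 3 and 4, counted for 36 members, was found for 19 to 24 under 3 scalings chosen after seeing the data. The log2 difference of the immune pairs ran from 1.25 to 2.20 (Psmb8 to Psmb5), 0.46 to 0.96 (Psmb10 to Psmb7) and -1.36 to -0.53 (Psmb9 to Psmb6) when libraries were left out. Lengths cancel between libraries, so a version per transcript length was not run. In the cMyc libraries, scaling to the same mRNA total or centring on the median mRNA ratio put 1 member (Psmc6) past 1.5-fold lower, against 0, and with no minimum of reads 2 were past it higher, against 1, the second being Psmb11 at 1 read. The counts of Psmb11 limit any statement on it.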
